A study of Mus musculus with 9 samples.

Results

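The comparison described here sets 3 arrays labelled Wip1-/- Atm+/- against 3 arrays labelled Wip1+/+, chosen by their genotype label, 6 of the 9 arrays of a study of mouse spermatids. The other 3 arrays carry the label Wip1-/-. They show where the first genotype also differed from that one. They also entered the normalization, the choice of probes and the estimate of spread behind every p-value. Total RNA of spermatids was hybridized to Illumina Mouse WG-6 arrays, which read each transcript with short bead-bound probes. Wip1-/- means loss of both alleles of Ppm1d, which encodes the phosphatase WIP1, Atm+/- means loss of 1 allele of Atm, and Wip1+/+ is the wild type. The series title sets the question in the silencing of heterochromatin through ATM, BRCA1 and DNA methylation. The labels give no promoter, Cre line, strain, age or number of animals, and leave unsaid whether arrays of 1 genotype stem from different animals. All p-values thus rest on the spread among these arrays alone, and that spread may be technical.

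Spermatids are the haploid cells that follow meiosis. They replace histones by transition proteins and then protamines, build the acrosome and assemble the flagellum, largely from messenger RNAs that were made earlier and stored. ATM is a kinase that answers DNA double-strand breaks, and WIP1 removes phosphate groups that ATM places. In the testis, germ cells lie inside tubules walled by Sertoli cells and by contractile peritubular myoid cells, which resemble smooth muscle and lay down a basement membrane with them, and vessels, fibroblasts, macrophages and Leydig cells lie between the tubules.

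The targeted genes were read first. All levels are log2 of background-corrected, quantile-normalized intensity, and a probe counts as detected on an array where its detection p-value is under 0.05. Ppm1d (brightest probe ILMN_3133522) stood at 9.52, 9.39 and 9.45 on the arrays labelled Wip1-/- Atm+/-, against 9.14, 9.46 and 9.46 on the wild type arrays. The groups overlapped, and the difference of 0.10 (SE 0.13) did not pass the threshold (limma adjusted p = 0.60). On the Wip1-/- arrays the same probe stood at 8.63, 8.87 and 8.59, below every array of the other genotypes. The other 2 Ppm1d probes given here did not share this order. ILMN_1226504 averaged 4.92 on the arrays labelled Wip1-/- Atm+/-, 6.02 on the Wip1-/- arrays and 4.79 in wild type, and was detected on the Wip1-/- arrays alone. ILMN_1237129 was detected on 0 arrays labelled Wip1-/- Atm+/-, 3 Wip1-/- arrays and 2 wild type arrays, with a difference from wild type of -0.35 that did not pass (limma adjusted p = 0.11 over all kept probes). The brightest probe on the arrays labelled Wip1-/- Atm+/- does not show a loss of Ppm1d as given by their label, so they are named by that label throughout, and every direction below rests on it. The sources used here do not say where the probes lie relative to the deleted part, and a probe outside it checks nothing. Atm, read by ILMN_2492491, stood at 6.29, 6.39 and 6.44 on the arrays labelled Wip1-/- Atm+/-, against 6.99, 7.22 and 7.05 in wild type, a fall of 0.71 in log2 units (SE 0.11, limma adjusted p = 0.00043). ILMN_1258206, another Atm probe, ran the other way, at 7.37, 7.14 and 7.30 against 6.38, 5.96 and 6.37, so the direction for Atm depends on the probe. Both probes of Brca1 were undetected on all 6 arrays.

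The 6 arrays had median scanner intensities of 100.5 to 115.4, and 37.9 to 39.8% of probes were detected on each. Arrays of the same genotype correlated at 0.991 to 0.992 (labelled Wip1-/- Atm+/-) and 0.989 to 0.990 (wild type) over the genes tested, and arrays of different genotypes at 0.959 to 0.963. The median SD of a gene over 3 arrays was 0.15 and 0.17 on the log2 scale in these groups. The number of arrays limits the precision, and the 95% interval of a gene's difference reached 0.31 to either side in the median over all genes tested. Markers of spermatids were detected on every array. Of 7 spermatid markers tested, 0 passed the threshold, and their summed normalized intensity ranged over 158178 to 163239 on the arrays labelled Wip1-/- Atm+/- and over 152769 to 166233 in wild type.

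Of 10556 genes tested, 3103 (29.4%) passed the threshold in this comparison, a limma adjusted p under 0.05 over all genes. The arrays labelled Wip1-/- Atm+/- were higher for 1634 (15.5%) and lower for 1469 (13.9%). Each list count below is to be read against these shares. The rises were larger than the falls. By more than 2-fold, 628 genes rose (5.95%) and 178 fell (1.69%), by more than 4-fold 191 rose and 21 fell, and by more than 8-fold 19 rose and 6 fell. These counts rest on the brightest probe of a gene. Of 233 genes called over 2-fold with several kept probes, all probes shared the sign in 173, and in the rest at least 1 probe ran the other way. The median change was 0.81 on the log2 scale among the rises and -0.60 among the falls, where the median over all genes was -0.03. For 3042 of the 3103 the 2 groups of arrays did not overlap, as for 41.3% of all genes tested. The split depends on the scaling. Rises made up 52.7% of called genes here, 35.0% with median scaling, which moved the median of all genes to -0.15, and 62.5% with cyclic loess. With median scaling 2451 genes were lower.

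**Figure D1:**
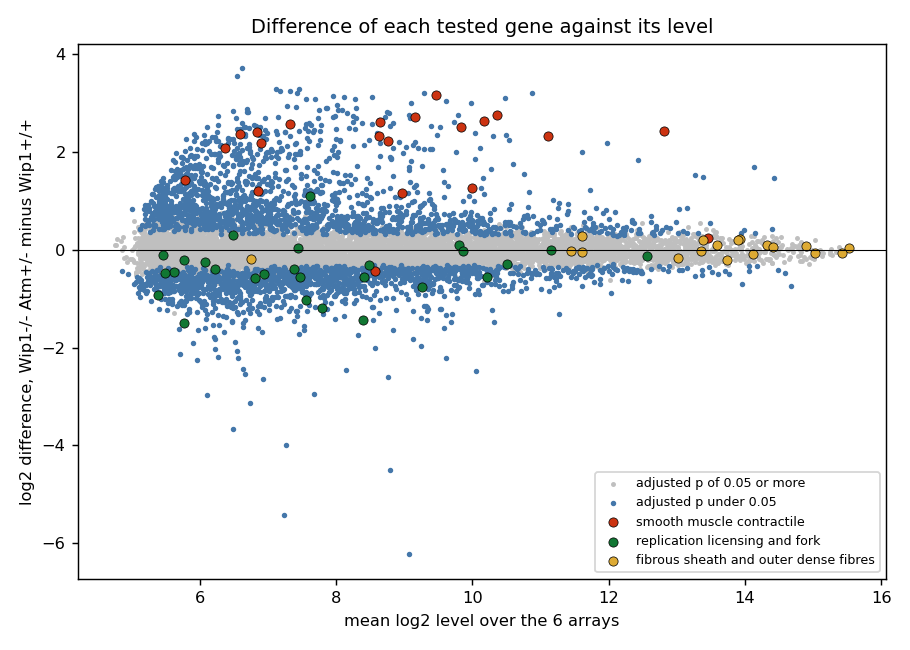
Log2 difference (arrays labelled Wip1-/- Atm+/- minus Wip1+/+) of each of the 10556 genes tested on the vertical axis, against its mean log2 level over the 6 arrays, with 3 gene lists marked. Of the smooth muscle genes 19 of 21 lie over 2-fold above 0, replication genes lie mostly below 0, and genes of the fibrous sheath and outer dense fibres lie between -0.21 and 0.27 at the right, among the brightest probes.

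Smooth muscle contractile genes rose together. Of 21 tested, 19 rose and 1 fell, with a median difference of 2.33. Myh11, the smooth muscle myosin heavy chain, stood at 11.04, 11.10 and 11.01 on the arrays labelled Wip1-/- Atm+/-, against 7.91, 7.81 and 7.91 in wild type, a rise of 3.17 (SE 0.10, limma adjusted p = 9.5e-09). Each of these arrays lay above each wild type array, with little spread on either side. Acta2, smooth muscle actin and a standard marker of peritubular myoid cells, stood at 14.01, 14.02 and 14.04 against 11.57, 11.61 and 11.57 in wild type. The regulatory light chain gene Myl9 rose by 2.76, the tropomyosin genes Tpm1 and Tpm2 by 2.64 and 2.62, the intermediate filament gene Des by 2.57 and Mylk, the myosin light chain kinase gene, by 2.32. Myocd, the coactivator that drives the smooth muscle programme together with the transcription factor SRF, rose by 2.09 (SE 0.19, limma adjusted p = 7.0e-06), and was detected on 1 wild type array. Lmod1, a leiomodin that nucleates actin filaments, was undetected in wild type and was at least 1.97-fold higher. Such a bound sets the mean of the detected group against the mean, over the other group's arrays, of the higher of the array's lowest detected signal and the probe's own signal. The exceptions were Actg2 and Srf. Actg2, the enteric form of smooth muscle actin, stood at 13.50, 13.56 and 13.69 against 13.47, 13.30 and 13.24 in wild type, a difference of 0.25 that did not pass (limma adjusted p = 0.11), and passed with cyclic loess (limma adjusted p = 0.043). Srf fell by 0.42 (SE 0.11, limma adjusted p = 0.015), at 8.30, 8.35 and 8.44 against 8.96, 8.64 and 8.76 in wild type, a call that was lost without replicate 1 of the arrays labelled Wip1-/- Atm+/- (limma adjusted p = 0.052) and without wild type replicate 1 (limma adjusted p = 0.051), and the mean of its detected probes gave 0.08 in place of a fall. In bulk RNA, fewer cells of a type and less RNA of a gene per cell cannot be told apart, and the same holds for more.

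SRF binds the CArG box, a short element with an A and T core between a pair of C and a pair of G. Promoters from RefSeq on build GRCm38.p6 were found for 18 of the 21 genes, and the 250 bases before the gene start were searched on both strands. The box was present in 4 of the 18 (22.2%), against 1.62% of the promoters of all 27025 genes in the table and 1.59% of the 8596 tested genes with a promoter. These promoters are shown because 3 belong to genes of the list that rose and the other to Srf, which fell. Capitals mark the box, and bases run 5′ to 3′ on the strand of the gene.
Myl9 (chr2:156775214-156775463, plus strand): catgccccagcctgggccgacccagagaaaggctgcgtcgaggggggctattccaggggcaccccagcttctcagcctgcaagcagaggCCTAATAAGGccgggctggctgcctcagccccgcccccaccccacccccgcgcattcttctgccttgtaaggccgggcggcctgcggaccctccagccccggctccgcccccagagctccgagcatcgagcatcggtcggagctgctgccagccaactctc
Vcl (chr14:20929148-20929397, plus strand): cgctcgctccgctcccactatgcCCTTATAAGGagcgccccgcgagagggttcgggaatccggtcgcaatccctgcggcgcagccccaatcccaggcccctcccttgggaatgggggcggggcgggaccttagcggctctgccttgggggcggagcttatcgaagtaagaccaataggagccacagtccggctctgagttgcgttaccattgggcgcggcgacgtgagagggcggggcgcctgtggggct
Cnn2 (chr10:79988350-79988599, plus strand): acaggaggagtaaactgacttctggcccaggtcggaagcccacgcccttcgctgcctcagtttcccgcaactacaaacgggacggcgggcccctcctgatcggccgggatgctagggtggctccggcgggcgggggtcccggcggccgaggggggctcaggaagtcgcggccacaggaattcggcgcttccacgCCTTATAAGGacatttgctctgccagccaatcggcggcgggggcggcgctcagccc
Srf (chr17:46556163-46556412, minus strand): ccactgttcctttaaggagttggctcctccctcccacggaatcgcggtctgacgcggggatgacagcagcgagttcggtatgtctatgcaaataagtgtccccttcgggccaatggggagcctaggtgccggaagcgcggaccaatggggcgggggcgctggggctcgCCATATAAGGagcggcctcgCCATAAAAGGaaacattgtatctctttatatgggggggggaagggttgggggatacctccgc
The box started 161 bases before the gene start in Myl9, 227 in Vcl, which encodes the adhesion protein vinculin, and 56 in Cnn2, which encodes a calponin. Srf held 2 boxes, 82 and 62 bases before its start. Vcl stood at 10.60, 10.51 and 10.76 on the arrays labelled Wip1-/- Atm+/- against 9.07, 9.09 and 9.92 in wild type, and Cnn2 at 7.54, 7.10 and 7.75 against 6.13, 6.57 and 6.05. A match is a description of these letters, not a binding site, and the other 14 promoters say nothing about the factor.

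Genes of the basement membrane, the sheet of laminin and type IV collagen under the tubule epithelium and around muscle cells and vessels, rose in 15 of 17 cases with 0 falls and a median of 1.90. Col4a1 stood at 10.10, 10.27 and 10.18 on the arrays labelled Wip1-/- Atm+/- against 7.45, 7.43 and 7.28 in wild type, a rise of 2.80 (SE 0.12, limma adjusted p = 2.7e-08). All 6 chains of type IV collagen passed. Col4a5 rose by 3.24, Col4a3 by 2.39, Col4a2 by 2.20 and Col4a4 by 1.90, while the tested probe of Col4a6 was undetected in wild type. Among the laminins, Lamc3 stood at 9.84, 9.77 and 9.84 against 6.71, 6.78 and 6.70 in wild type, Lamb2 rose by 2.23, Lamc1 by 1.68 and Lama1 by 1.67, and Lama5 differed by 0.04 without passing. Nid1, a linker between laminin and collagen, rose by 2.43 and Hspg2, the perlecan gene, by 1.91. With only genes detected on all 9 arrays, 9 members remained and all 9 rose.

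Fibrillar collagens and their processing genes rose in 11 of 16 cases with 0 falls and a median of 1.00, or 0.64 with 3 members held at the bound that detection allows. Col6a1, a beaded filament collagen, stood at 10.15, 10.05 and 10.06 on the arrays labelled Wip1-/- Atm+/- against 6.86, 6.95 and 7.06 in wild type (rise of 3.13, SE 0.10, limma adjusted p = 9.5e-09), and another of its probes gave 3.21. Serpinh1, a chaperone of procollagen, rose by 2.54 and Col1a1, of type I collagen, by 2.33. Col1a2 and Col3a1 were undetected in wild type and were at least 1.92-fold and 1.36-fold higher. Both were undetected on the Wip1-/- arrays too. They entered the comparison only through the arrays labelled Wip1-/- Atm+/-, where they are high, so they could count only as rises.

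Most other matrix genes tested rose too. Of 11 genes of elastic fibres and matricellular proteins 8 rose and 2 fell. Ccn2, a secreted target of mechanical and TGF beta signals, stood at 12.43, 12.49 and 12.49 on the arrays labelled Wip1-/- Atm+/- against 9.29, 9.10 and 9.42 in wild type. Ccn5 rose by 3.30, Mfap4, a microfibril protein gene, by 2.80, and Eln, the elastin gene, by at least 3.17-fold from no detection. Ltbp1, a TGF beta binding protein gene, differed by -0.24 and did not pass, and Tnc, the tenascin C gene, fell by 0.40. Fn1, the fibronectin gene, fell too. Its tested probe stood at 4.89, 5.03 and 4.82 with no detection, against 5.70, 5.56 and 5.63 in wild type, where 2 arrays detected it. The count of falls was 1 without replicate 3 of the arrays labelled Wip1-/- Atm+/- and without wild type replicate 1. Of 6 small leucine-rich proteoglycans, which decorate collagen fibrils, Ogn rose by 3.29, Prelp by 2.82, Bgn by 2.39 and Dcn by 2.07. Lum, of the same family, differed by -0.21 (SE 0.21) and Fmod by 0.40 (SE 0.20), and neither passed (limma adjusted p = 0.49 and 0.16).

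Genes that act on the matrix or anchor cells to it also counted more rises than falls. Of 10 proteases and inhibitors 7 rose and 1 fell. Timp3, a matrix-bound inhibitor of metalloproteinases, stood at 10.82, 10.52 and 10.49 on the arrays labelled Wip1-/- Atm+/- against 7.43, 7.66 and 7.73 in wild type, and Mmp14, a membrane-bound metalloproteinase gene, rose by 2.21. Timp4 was the fall, undetected on the arrays labelled Wip1-/- Atm+/- and at least 1.39-fold lower. Of 13 integrin and focal adhesion genes 8 rose and 0 fell, with Itga9 up by 2.72 and Zyx, a sensor of tension on actin fibres, up by 2.06. All 6 called members among 7 genes of IGF binding proteins and ligands rose, and 4 or 5 did where 1 array was left out. Igfbp6 stood at 9.50, 9.24 and 9.20 against 6.46, 6.49 and 6.27, and the growth factor gene Igf2 at 10.04, 9.88 and 9.74 against 8.01, 7.77 and 7.61 in wild type.

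Among regulators of mesenchymal cells 6 of 12 rose and 1 fell, and the fall was not called without any 1 of the arrays other than wild type replicate 3. Osr2, a zinc finger factor of mesenchyme, stood at 11.02, 10.99 and 10.67 on the arrays labelled Wip1-/- Atm+/- against 7.81, 7.60 and 7.66 in wild type, and a further probe gave 3.15 beside 3.20. Pdgfra, a receptor for platelet-derived growth factor on fibroblasts and peritubular precursors, rose by 3.08 (SE 0.12, limma adjusted p = 2.1e-08). Gli2, a transcription factor of hedgehog signalling, rose by 1.69, and Nr2f2, a nuclear receptor of stromal cells, was at least 1.75-fold higher. In TGF beta and BMP signalling 5 of 11 rose and 0 fell. The ligand gene Bmp4 was at least 2.96-fold higher and undetected in wild type, and the receptor gene Bmpr2 rose by 1.64. In Notch and Wnt signalling 8 of 14 rose and 1 fell, with Wnt5a and Notch3 at least 1.55-fold and 1.51-fold higher and Lef1, a transcription factor that receives Wnt signals, down to an average of 8.01 ± 0.27 against 8.84 ± 0.04 in wild type (SD, n = 3 each).

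**Figure D2:**
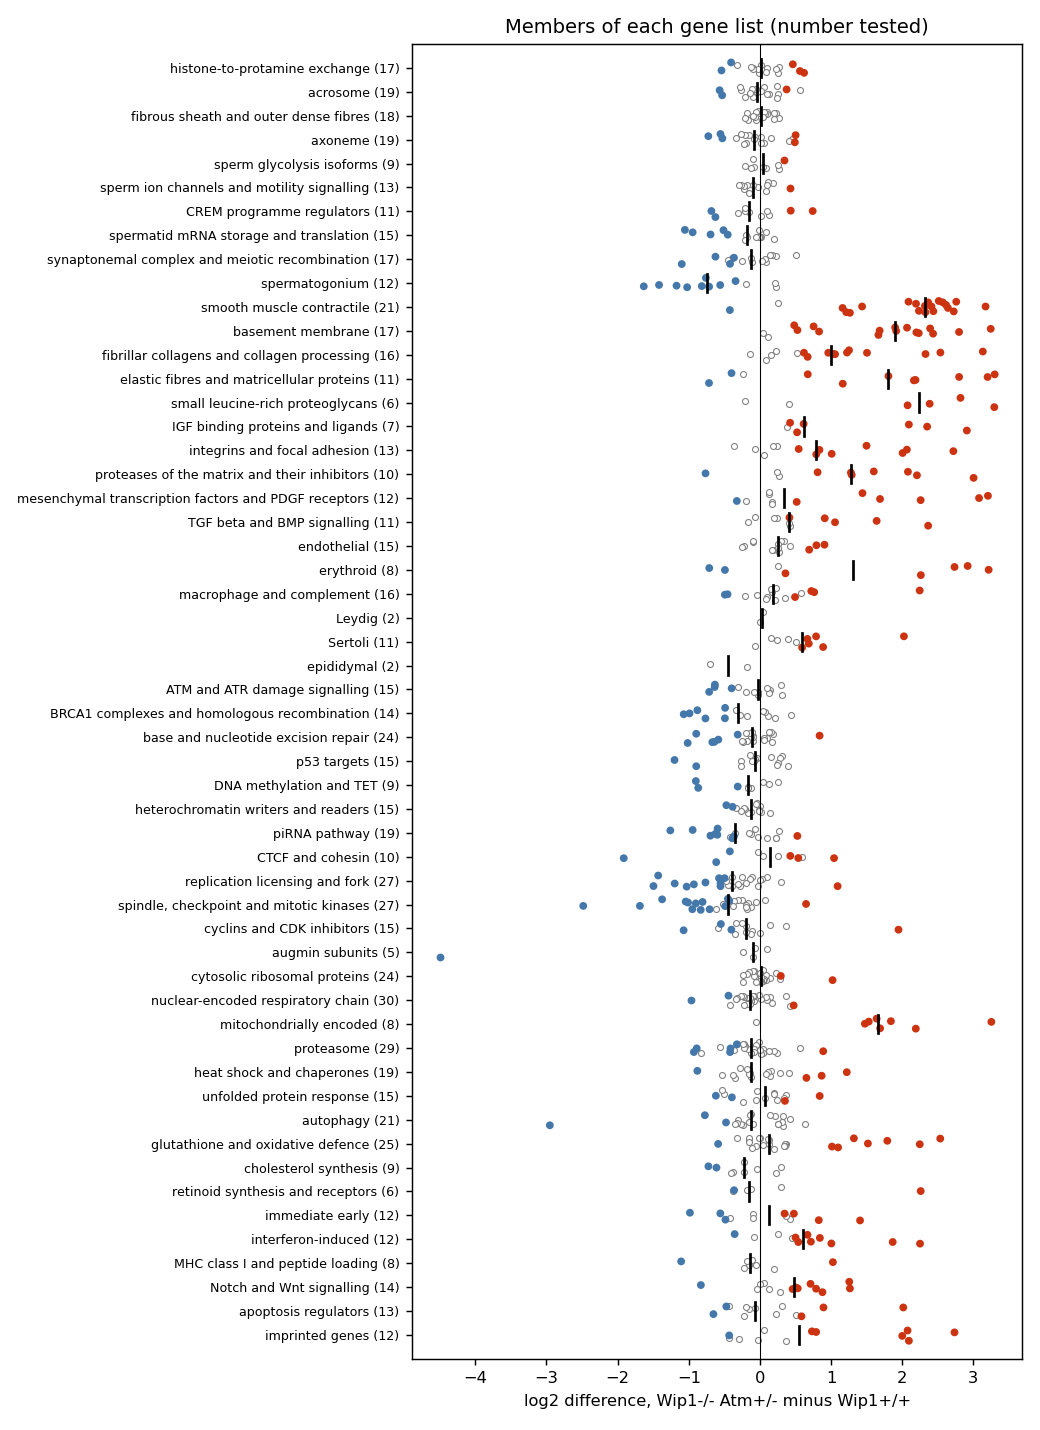
Log2 difference (arrays labelled Wip1-/- Atm+/- minus Wip1+/+) of every tested member of each gene list, with the number tested beside the list's name. Filled points passed a limma adjusted p under 0.05 (red higher, blue lower), open points did not, and the black bar is the median, which lies at 2.33 for smooth muscle and at -0.74 for spermatogonium.

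Markers of other testicular cell types moved unequally, and what part each had in the results was not tested. The summed intensity of the 4 peritubular myoid markers tested ranged over 30633 to 32517 on the arrays labelled Wip1-/- Atm+/- and over 13045 to 14662 in wild type, with Cnn1 undetected in both and Tagln undetected in wild type. Most of the wild type sum came from Actg2, the only marker of the 4 that did not pass, so the sum changed less than Acta2, Myh11 and Des did. The 6 stromal fibroblast markers summed to 3191 to 3530 against 729 to 835 in wild type, and 5 of them rose. The endothelial sums of the groups overlapped. They were 348 to 361 against 350 to 364 in wild type, 0 of 5 passed, Pecam1, Kdr and Esam were undetected in both, and Cdh5 and Tek were undetected in wild type. In the wider endothelial list 3 of 15 rose, with 7 members known only as a bound, while the Wip1-/- arrays were higher than wild type for 10 of the 15. The shares over all genes were 15.5% and 11.5%. Leydig markers were mostly undetected. Star, Cyp17a1, Hsd3b1 and Hsd3b6, the enzymes and carrier of steroid synthesis, were undetected in both groups, and Cyp11a1, of the first step, was undetected on the arrays labelled Wip1-/- Atm+/-. Insl3, the Leydig hormone gene, stood at 7.68, 7.56 and 7.50 against 7.83, 7.28 and 7.61 in wild type. Sertoli markers summed to 799 to 897 against 575 to 661, with Amh and Gata4 undetected in both. In the wider Sertoli list 6 of 11 rose, against 15.5% of all genes. Vim, an intermediate filament gene that fibroblasts and other mesenchymal cells express too, rose by 2.02, and Cldn11, a tight junction gene of Sertoli cells, by 0.59.

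Of 8 erythroid genes tested 5 rose and 2 fell, against 15.5% and 13.9% of all genes, with a median of 1.31. Hba-a1, an alpha globin gene, stood at 9.10, 9.04 and 8.95 on the arrays labelled Wip1-/- Atm+/- against 5.87, 6.04 and 5.54 in wild type, a rise of 3.21 (SE 0.14, limma adjusted p = 3.6e-08). The beta globin genes Hbb-bs and Hbb-bt rose by 2.73 and 2.26. Klf1, a transcription factor of red cell precursors, stood at 8.99, 8.64 and 9.01 against 5.89, 6.11 and 5.88 in wild type, and averaged 5.81 on the Wip1-/- arrays. Of the same list, Hemgn fell by 0.49 and Tfrc, the transferrin receptor gene, was at least 1.35-fold lower. The 4 erythroid markers tested, all of which rose, summed to 2201 to 2514 against 333 to 378 in wild type. The whole erythroid list summed to 8590 to 9042 against 5874 to 6326. Macrophage markers ranged over 623 to 730 against 480 to 616. In the macrophage and complement list 4 of 16 rose and 2 fell, against 15.5% and 13.9% of all genes. There were 0 falls without replicate 3 of the arrays labelled Wip1-/- Atm+/- or wild type replicate 1. There was 1 fall without replicate 2 of the arrays labelled Wip1-/- Atm+/-, wild type replicate 2 or wild type replicate 3. The largest rise was that of Serping1, the C1 inhibitor gene of many stromal cells, by 2.25.

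**Figure D3:**
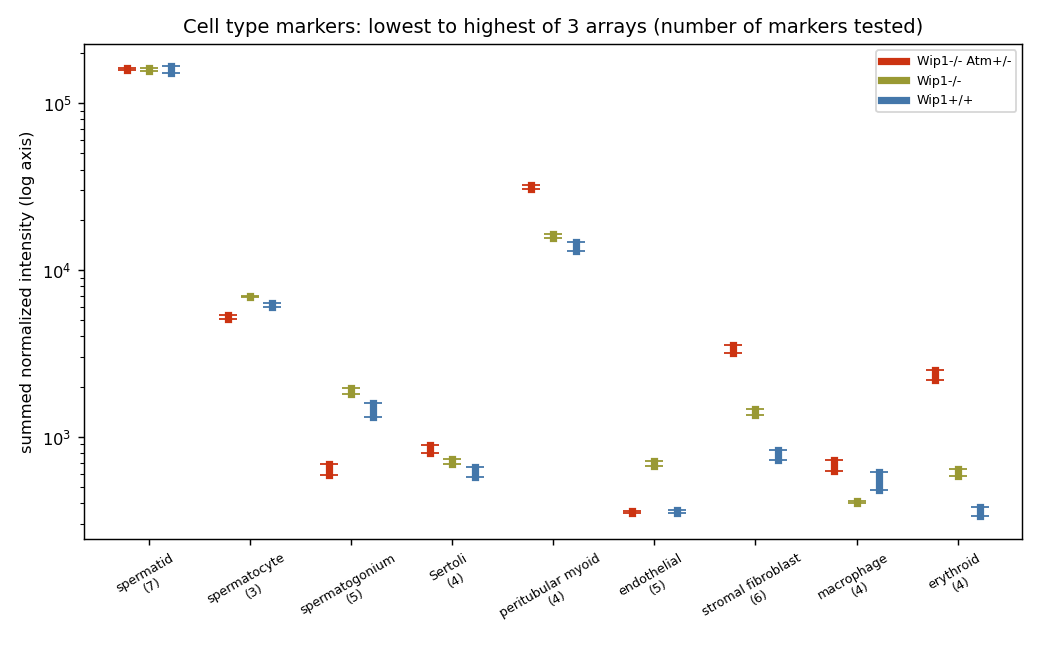
Summed normalized intensity (log axis) of the tested markers of each cell type, as a bar from the lowest to the highest of the 3 arrays of each genotype, with the arrays labelled Wip1-/- Atm+/- left of Wip1-/- and Wip1+/+. The genotypes overlap for spermatid markers, and the arrays labelled Wip1-/- Atm+/- stand above wild type for peritubular myoid, stromal fibroblast and erythroid markers and below it for spermatogonium and spermatocyte markers.

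Most genes of spermatogonia that were tested fell. Of 12 tested 0 rose and 9 fell, against 13.9% of all genes that fell, with a median of -0.74, or -0.49 with 3 members held at their bound. Dazl, an RNA-binding protein gene of the germ line, stood at 7.76, 8.29 and 8.04 on the arrays labelled Wip1-/- Atm+/- against 9.54, 9.44 and 9.99 in wild type, a fall of 1.63 (SE 0.17, limma adjusted p = 2.5e-05). Tex101, a germ cell surface protein gene, fell by 1.42, the X-linked homeobox gene Rhox13 by 1.17, Uchl1 by 1.02 and Kit, the receptor of differentiating spermatogonia, by 0.82. Sall4, a stem cell factor gene, was at least 1.33-fold lower and undetected on the arrays labelled Wip1-/- Atm+/-. Stra8, Gfra1 and Dmrt1 were undetected in both groups, and the 5 markers tested summed to 587 to 689 against 1316 to 1596 in wild type. Spermatocyte markers summed to 5065 to 5345 against 6016 to 6359 in wild type, and 1 of the 3 tested passed as lower. Of 17 genes of the synaptonemal complex and recombination 4 fell, 0 rose and 13 did not pass, and 2 to 4 fell where 1 array was left out. The count was 2 without replicate 3 of the arrays labelled Wip1-/- Atm+/- and without wild type replicate 1 or 2. Meiob, a single-strand binding factor of meiotic recombination, fell by 1.10, and Sycp3 was undetected in both groups.

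Genes of DNA replication and division fell more often than they rose. Of 27 licensing and fork genes 11 fell and 1 rose, with a median of -0.40. Mcm6, a subunit of the replicative helicase, stood at 7.19, 7.02 and 7.36 on the arrays labelled Wip1-/- Atm+/- against 8.26, 8.53 and 8.37 in wild type, a fall of 1.20 (SE 0.15, limma adjusted p = 0.00011), and a further probe gave -1.11. Mcm2 was at least 1.99-fold and Mcm3 at least 1.25-fold lower, both undetected on the arrays labelled Wip1-/- Atm+/-. Orc6, of the origin recognition complex, fell by 1.43 and Gins2, of the GINS complex, by 1.03. Gins1, of the same complex, was the exception with a rise of 1.09. Of 27 spindle, checkpoint and mitotic kinase genes 13 fell and 1 rose. Cenpa, the centromeric histone H3, stood at 6.30, 6.04 and 5.88 against 8.03, 7.55 and 7.70, Mad2l1, of the spindle checkpoint, fell by 1.37, the kinesin gene Kif2c by 1.04, Cdk1 by 0.90 and the kinase gene Aurkb by 0.83. Kif23, a kinesin of the central spindle, fell by 2.48 at its brightest probe, while 2 further probes gave -0.79 and 0.32, so the size for this gene is uncertain. Cyclins were mixed, with 1 rise and 3 falls among 15. Ccnd2, the cyclin D2 gene, rose at 7.53, 7.52 and 7.32 against 5.76, 5.16 and 5.61, and Ccne2, the cyclin E2 gene, fell by 1.07. The count of falls was 1 without replicate 3 of the arrays labelled Wip1-/- Atm+/- or wild type replicate 2, and that of rises was 2 without replicate 2 of either genotype.

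The sequence TTCCCGC, an element of many genes regulated by E2F factors in the cell cycle, was present on either strand within 250 bases before the start of 4 of 21 replication genes with a promoter and of 1 of 23 spindle genes (4.35%), against 4.38% of all 27025 genes and 7.56% of the 8596 tested genes with a promoter. Promoters of Rrm1, a subunit of ribonucleotide reductase, and of Cdc6, a loader of the replicative helicase, are shown as the fallen members of the replication list that held it, with the match in capitals. In Cdc6 it lies on the opposite strand.
Rrm1 (chr7:102441445-102441694, plus strand): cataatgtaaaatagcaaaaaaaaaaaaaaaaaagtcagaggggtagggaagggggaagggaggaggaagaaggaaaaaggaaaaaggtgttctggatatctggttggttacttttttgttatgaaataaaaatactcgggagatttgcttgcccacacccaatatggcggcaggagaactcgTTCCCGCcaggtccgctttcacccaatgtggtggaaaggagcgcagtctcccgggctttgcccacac
Cdc6 (chr11:98907901-98908150, plus strand): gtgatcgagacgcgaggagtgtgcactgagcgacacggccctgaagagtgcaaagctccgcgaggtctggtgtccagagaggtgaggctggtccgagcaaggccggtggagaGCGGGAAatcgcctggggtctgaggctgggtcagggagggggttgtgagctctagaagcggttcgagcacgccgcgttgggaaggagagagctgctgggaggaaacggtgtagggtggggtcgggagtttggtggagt
Rrm1 fell by 0.55 (limma adjusted p = 0.021), with its match 67 bases before the start, and its call was lost without replicate 1 or replicate 3 of the arrays labelled Wip1-/- Atm+/- and without wild type replicate 1 (limma adjusted p of 0.077, 0.077 and 0.080). Cdc6 fell by 0.57 (limma adjusted p = 0.011), at 6.48, 6.67 and 6.42 on the arrays labelled Wip1-/- Atm+/- against 7.25, 6.79 and 7.26 in wild type, with its match 138 bases before the start. The other members with a match, Mcm7 and Gins3, differed by -0.28 and -0.20 without passing.

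Most of the deepest falls of the comparison lay outside the lists described above, with Kif23 of the spindle list among the exceptions. Haus1 and Atg3 belong to further lists, of augmin subunits and of autophagy genes. Cstdc3, a gene of the cystatin family, was undetected on the arrays labelled Wip1-/- Atm+/- at 4.46, 4.52 and 4.59, against 9.54, 9.78 and 10.54 in wild type, at least 21.5-fold lower. Abhd10, which encodes a thioesterase of mitochondria, was at least 13.3-fold lower, at 5.31, 5.15 and 5.34 against 9.49, 9.09 and 9.22. Haus1, a subunit of the augmin complex that branches microtubules in the spindle, stood at 6.56, 6.60 and 6.46 against 10.94, 10.63 and 11.55 in wild type, a fall of 4.50 (SE 0.21, limma adjusted p = 4.9e-08). The other augmin subunits tested, Haus4, Haus5, Haus6 and Haus8, differed by -0.10, -0.07, 0.10 and -0.24, and none of the 4 passed. Another kept probe of Haus6 ran the other way, by over 0.2. Guca2b, the uroguanylin gene, was at least 4.17-fold lower, Spint1, a protease inhibitor gene, at least 5.31-fold, and Gfm2, a mitochondrial translation factor gene, at least 4.43-fold, each detected on all wild type and all Wip1-/- arrays. Atg3, an enzyme of autophagosome formation, fell by 2.95 at 5.93, 6.80 and 5.88 against 9.01, 9.08 and 9.37, Nnmt, nicotinamide methyltransferase, by 2.46 and the dynactin gene Dctn6 by 2.21, although a second probe of Dctn6 gave 0.08. Each of these genes was also lower than on the Wip1-/- arrays (limma adjusted p between 3.3e-08 and 4.6e-06 for those named here).

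Some large rises were likewise outside the lists. Adgrg7, an adhesion G protein-coupled receptor gene, stood at 8.58, 8.38 and 8.46 on the arrays labelled Wip1-/- Atm+/- and was undetected on all wild type arrays, at 4.81, 4.70 and 4.78, a rise of at least 7.69-fold. Gal3st2, a galactose sulfotransferase gene, stood at 8.37, 8.30 and 8.29 against 4.82, 4.85 and 4.64 and rose at least 6.92-fold. Both were undetected on the Wip1-/- arrays too, so they could count only as rises. Sct, the secretin gene, stood at 11.12, 11.18 and 11.11 against 8.13, 7.93 and 8.19, and Slc38a5, an amino acid transporter gene on the X chromosome, rose by 3.10. Aoc3, an amine oxidase of smooth muscle and vessels, rose by 3.14, Cav1, which coats caveolae, by 3.13, Plpp3, a lipid phosphatase gene, by 2.99 and Ahnak, a large membrane scaffold, by 2.91. Slit3, a guidance ligand gene, rose by 2.87. Casq2, a calcium buffer of muscle, was at least 5.18-fold higher and undetected in wild type.

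**Figure D4:**
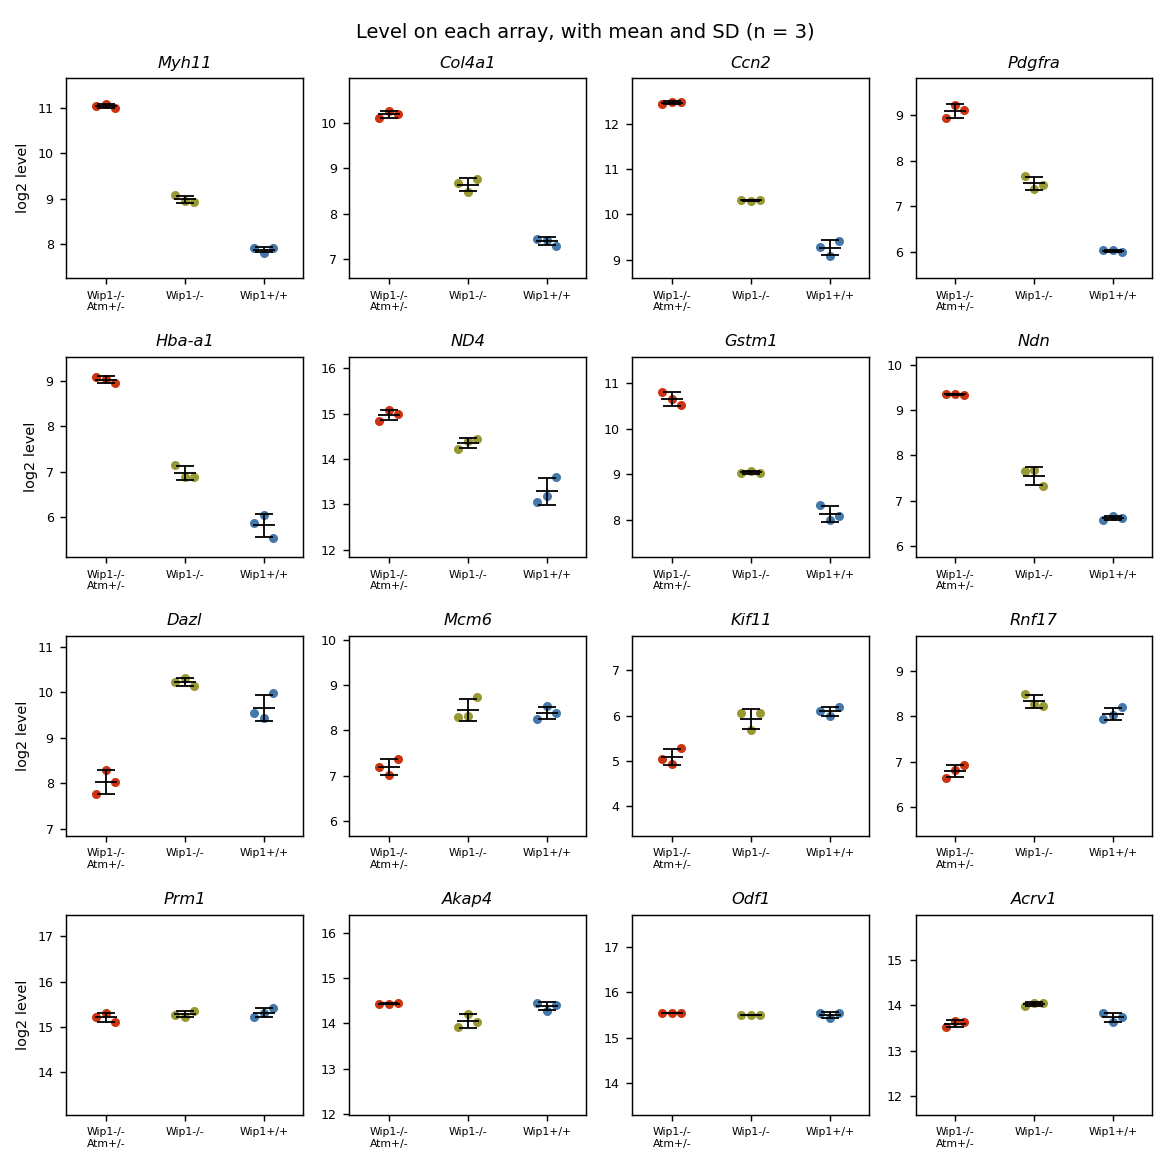
Log2 level of 16 genes on each array (points), with mean and SD (n = 3), for the arrays labelled Wip1-/- Atm+/-, Wip1-/- and Wip1+/+ from left to right. Myh11, Col4a1, Ccn2, Pdgfra and Hba-a1 are higher and Dazl, Mcm6 and Rnf17 lower on the arrays labelled Wip1-/- Atm+/- than in wild type, and Prm1, Akap4, Odf1 and Acrv1 overlap or lie close.

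Genes detected in only 1 of the 2 genotypes were counted apart. On the arrays labelled Wip1-/- Atm+/- 233 genes had a tested probe detected on all 3 arrays while every probe was undetected in wild type. The reverse held for 103 genes. Of the 233, 54 were undetected on all Wip1-/- arrays and 77 were detected on all of them. The 54 were tested only because the arrays labelled Wip1-/- Atm+/- detected them. Of the 103, 4 were undetected on all Wip1-/- arrays and 71 were detected on all of them. Among the 233, Mrvi1, a smooth muscle target of cGMP-dependent kinase, was at least 6.03-fold higher, Aatk, a kinase gene, 5.94-fold, Fgfr2, a fibroblast growth factor receptor gene, 5.25-fold and Hoxd10, a homeobox gene, 5.12-fold.

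Lists of spermatid structure differed in how many members passed. Of 18 genes of the fibrous sheath and outer dense fibres, the scaffolds of the sperm tail, 0 rose and 0 fell, against 29.4% of all genes, and the median was 0.01. Their differences ran from -0.21 to 0.27. Akap4, the main protein of the fibrous sheath, averaged 14.43 on the arrays labelled Wip1-/- Atm+/- and 14.38 in wild type, with a 95% interval of the difference of -0.19 to 0.30, and Odf1 averaged 15.55 and 15.51, with an interval of -0.18 to 0.25. With median scaling 1 member was lower and with cyclic loess 1 was higher. Of 17 genes that act as histones give way to protamines 3 rose and 2 fell, a share equal to the 29.4% of all genes, with 1 fall without replicate 1 or 3 of the arrays labelled Wip1-/- Atm+/- or wild type replicate 2. Prm3 stood at 13.06, 12.75 and 12.89 against 12.37, 12.45 and 12.20, a call lost with median scaling, and Hils1, a spermatid linker histone, fell by 0.41, with its call lost under cyclic loess. Prm1, Tnp1 and Tnp2 differed by -0.10, 0.10 and -0.02 and did not pass. With median scaling 0 of the 17 were higher and 3 lower, and with cyclic loess 5 were higher and 0 lower. Of 19 acrosome genes 1 rose and 2 fell, with Acrbp, a binding protein of proacrosin, down by 0.53, a call that was lost with the mean of its detected probes. The rise was not called without replicate 1 or 3 of the arrays labelled Wip1-/- Atm+/- or wild type replicate 1 or 2. Of 19 axoneme genes 2 rose and 3 fell, with Tekt5, of the tektin filaments, down by 0.73, and 1 rose without replicate 1 of the arrays labelled Wip1-/- Atm+/- or wild type replicate 3. Among 9 glycolytic genes of sperm 1 rose, a call lost without any 1 of the arrays other than replicate 2 of those labelled Wip1-/- Atm+/-, and among 13 ion channel and motility genes 1 rose, Adcy10, the soluble adenylyl cyclase gene, by 0.42. With median scaling 0 rose in each of the acrosome, axoneme, glycolysis and ion channel lists, and 5, 7, 1 and 4 fell in them in that order.

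Genes that store and translate messenger RNA in spermatids fell in 5 of 15 cases with 0 rises, against 13.9% of all genes that fell. Ddx4, the germ line helicase, stood at 9.13, 9.14 and 9.06 on the arrays labelled Wip1-/- Atm+/- against 9.75, 10.11 and 10.30 in wild type, Boll, a relative of Dazl, fell by 0.69 and Ybx3, a binding protein of stored messages, by 0.51. Genes of the piRNA pathway, which silences transposons through small RNAs, fell in 8 of 19 cases and rose in 1, with a median of -0.35. Rnf17, a tudor protein of germ cells, stood at 6.65, 6.82 and 6.92 against 7.94, 8.04 and 8.19, a fall of 1.26 (SE 0.12, limma adjusted p = 1.7e-05), and a further probe gave -0.50. Mov10l1, a helicase of piRNA biogenesis, fell by 0.70 and Henmt1, which methylates piRNA ends, by 0.60, while Asz1 rose by 0.53, a call that was lost with median scaling. Ddx4 belongs to both lists, and the mean of its detected probes did not pass. Among regulators of the CREM programme, which turns on spermatid genes, 2 rose and 2 fell of 11, with 1 rise without replicate 2 or 3 of the arrays labelled Wip1-/- Atm+/- or wild type replicate 1 or 2. Kif17, a kinesin gene tied to that programme, stood at 9.90, 9.53 and 9.88 against 8.91, 9.41 and 8.76, and Taf7l, of the general transcription machinery of spermatids, fell by 0.68.

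For genes of the pathways named in the series title and of repair and chromatin, counts are read against the 13.9% of all genes that fell and the 15.5% that rose. Of 15 genes of ATM and ATR signalling 4 fell and 0 rose, Atm among them with the probe conflict given above. Kat5, an acetyltransferase that activates ATM, stood at 9.48, 9.14 and 9.39 on the arrays labelled Wip1-/- Atm+/- against 10.02, 10.03 and 9.86 in wild type. Of 14 genes of BRCA1 complexes and homologous recombination 6 fell and 0 rose, with a median of -0.31, or -0.16 with 3 members held at their bound. Rpa3, of the single-strand binding complex, stood at 6.52, 6.51 and 6.37 against 7.41, 7.29 and 7.66, and Palb2 and Uimc1, partners of BRCA1, were at least 1.18-fold and 1.10-fold lower. Of 24 genes of excision repair 6 fell and 1 rose. Ung, the uracil glycosylase gene, fell by 1.02, Ddb2, which finds ultraviolet damage, by 0.90 and Lig1, a DNA ligase gene, by 0.67, and Ercc5, an endonuclease of the same pathway, stood at 8.92, 8.92 and 8.94 against 8.10, 8.08 and 8.09. Of 15 p53 targets 2 fell and 0 rose, close to the share of all genes that fell. Of 9 DNA methylation genes 3 fell and 0 rose. Dnmt3b, a de novo methyltransferase gene, stood at 5.76, 5.43 and 5.99 against 6.43, 6.73 and 6.73, a fall of 0.90 (SE 0.15, limma adjusted p = 0.00095). Dnmt1, the maintenance methyltransferase gene, fell by 0.87, a call that was lost without replicate 3 of the arrays labelled Wip1-/- Atm+/-. The count of falls in this list was then 1, and 2 or 3 without each other array. Of 15 heterochromatin writers and readers 2 fell, again close to that share, Setdb1, a histone H3 lysine methyltransferase gene, by 0.47 among them. The count was 6 with median scaling, and 1 without replicate 1 or 3 of the arrays labelled Wip1-/- Atm+/- or wild type replicate 2 or 3. Of 10 genes of CTCF and cohesin 3 rose and 3 fell, 1 each way over 2-fold, with a median of 0.15. Ctcfl, the testis relative of the insulator protein CTCF, was the largest fall. It was undetected on the arrays labelled Wip1-/- Atm+/- at 5.04, 4.86 and 4.96, against 6.98, 7.12 and 6.49 in wild type, at least 2.53-fold lower. The Wip1-/- arrays averaged 5.36 for it, and the difference from them did not pass (limma adjusted p = 0.073).

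Mitochondrially encoded transcripts rose in 7 of 8 cases with 0 falls, a median of 1.66. ND4, a subunit of complex I, stood between 14.84 and 15.07 on the arrays labelled Wip1-/- Atm+/- against 13.05, 13.19 and 13.61 in wild type, and CYTB, of complex III, rose by 1.47. ATP6 stood at 12.82, 13.38 and 13.02 against 10.57, 10.33 and 11.74, where wild type replicate 3 was the highest of its group, as it also was for ND4, CYTB, COX2, ND1 and ND4L. ND5 differed by -0.06 without passing. The nuclear-encoded subunits of the respiratory chain did not share this. Of 30 tested 1 rose and 2 fell, with 11 lower under median scaling and 0 lower without replicate 3 of the arrays labelled Wip1-/- Atm+/-. The fall count was 1 without their replicate 2 or wild type replicate 1, the rise count 0 without their replicate 1 or 3 or wild type replicate 1 and 2 without wild type replicate 2. Of 24 cytosolic ribosomal protein genes 2 rose, with 1 where any array but wild type replicate 3 was left out. Proteasome genes counted 1 rise and 5 falls of 29, against 13.9% of all genes that fell. There were 13 lower under median scaling and 3 lower without replicate 1 of the arrays labelled Wip1-/- Atm+/-. Psme1, a regulator that interferon induces, was the rise at 8.22, 7.94 and 7.81 against 7.21, 7.18 and 6.92, and Psma8, the testis form of a core subunit, fell by 0.93.

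Glutathione and oxidative defence genes rose in 7 of 25 cases and fell in 1, against 15.5% and 13.9% of all genes. All 7 rises were over 2-fold, against 5.95% of all genes. Without replicate 2 of the arrays labelled Wip1-/- Atm+/- 2 fell. Gstm2, a glutathione transferase gene, stood at 11.64, 11.64 and 11.70 on the arrays labelled Wip1-/- Atm+/- against 9.29, 9.55 and 9.39 in wild type, and its other probes gave 2.32 and 2.24 beside 2.25. Gstm1 rose by 2.53, although a dimmer probe gave -0.36, and these family members are close copies, so probes may read more than 1 of them. Gstt1 rose by 1.79 and Gpx1, a glutathione peroxidase gene, by 1.52. Gclm, of the enzyme that starts glutathione synthesis, fell by 0.59. Gss, which completes that synthesis and is not in the list counted here, is among the 30 largest falls of the comparison and was at least 3.59-fold lower and undetected on the arrays labelled Wip1-/- Atm+/-. Of 19 heat shock and chaperone genes 3 rose, 1 fell and 15 did not pass, with 4 lower under median scaling. Hspb1, a small heat shock protein gene of muscle and other cells, rose by 1.22 and Hspa1b, an inducible HSP70 gene, fell by 0.88, at 11.37, 11.63 and 11.76 against 12.55, 12.43 and 12.42. Of 9 cholesterol synthesis genes 2 fell, Cyp51 by 0.72 and Fdps by 0.61.

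Interferon-induced genes rose in 8 of 12 cases and fell in 1, with 0 falls without replicate 3 of the arrays labelled Wip1-/- Atm+/-. Ifitm3, a membrane protein that blocks virus entry, stood at 9.13, 9.41 and 9.03 on the arrays labelled Wip1-/- Atm+/- against 7.07, 7.09 and 6.65 in wild type, a rise of 2.25 (SE 0.16, limma adjusted p = 8.7e-07). Ifitm2 rose by 1.87, Ifi27 by 0.67, and Gbp2, a guanylate binding protein gene, was at least 1.29-fold higher. With only genes detected on all 9 arrays 4 rose. Of 8 genes of class I antigen presentation 1 rose, 1 fell and 6 did not pass. B2m rose by 1.03 and Tapbp, a chaperone of peptide loading, fell by 1.11, at 6.15, 7.05 and 6.86 against 7.71, 8.08 and 7.59. Among immediate early genes 4 rose and 3 fell of 12, against 15.5% and 13.9% of all genes, and 2 or 3 rose where 1 array was left out. The count was 2 without replicate 1 or replicate 3 of the arrays labelled Wip1-/- Atm+/-. Klf6 rose by 1.41 and Egr1 fell by 0.98, and both kept their direction and call in every fit that left out an array. The count of falls was 1 without replicate 1 of either genotype. Of 13 apoptosis regulators 3 rose and 2 fell, against 15.5% and 13.9% of all genes, with Bok up by 2.01. The count of falls was 1 without any 1 of the arrays labelled Wip1-/- Atm+/-.

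Imprinted genes, which are expressed from 1 parental allele, rose in 6 of 12 cases and fell in 1, with 2 falls without replicate 1 of the arrays labelled Wip1-/- Atm+/-. Ndn, the necdin gene, stood at 9.35, 9.36 and 9.34 on the arrays labelled Wip1-/- Atm+/- against 6.57, 6.66 and 6.62 in wild type, a rise of 2.73 (SE 0.12, limma adjusted p = 3.6e-08). Impact rose by 2.00, Gnas by 0.73 and Igf2 and Dcn as given above, which also stand in the growth factor and matrix lists. Grb10, Snurf and Ube3a differed by -0.03, 0.05 and -0.29 without passing. Of 6 genes of retinoid synthesis and receptors 1 rose and 1 fell, and the fall was lost in some fits that left out 1 array. Aldh1a1, an enzyme of retinoic acid synthesis, rose by 2.26. Aldh1a2, of the same step in germ cells, differed by -0.18 (SE 0.11, limma adjusted p = 0.26), and passed as lower with median scaling.

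By chromosome, the share of tested genes that passed was lowest on chromosome 17, with 66 rises and 55 falls of 527, and highest on chromosome 14, at 37.9%, among autosomes. On the X chromosome 25.8% of 341 genes rose and 9.38% fell, against 15.5% and 13.9% of all genes, and its median was 0.12. No test was made of this difference. Among the 40 tested genes nearest to Atm on chromosome 9, 20 on each side, 5 rose and 10 fell, a share of 37.5% against 29.4% of all genes. Within that window Ddx10, Colca2, Alg9 and Dixdc1 fell by 1.32, 1.43, 1.18 and 1.60, and Acsbg1 rose by 2.12. Around Ppm1d on chromosome 11 there were 1 rise and 7 falls in 40, with 0 changes over 2-fold, and around Brca1 on the same chromosome the share was 32.5%. Between Atg3 and Adgrg7 on chromosome 16, a stretch chosen after its values were seen, 10 of 24 tested genes fell and 3 rose, with Cd96 down by 2.59 and Cd47, also within it, up by 1.92. Runs of at least 3 adjacent tested genes that all changed over 2-fold in 1 direction numbered 5, all of them rises. They were Stk25, Bok and Thap4 on chromosome 1, BC028528, Aph1a and Car14 on chromosome 3, Trip6, Ephb4 and Zan on chromosome 5, Olfr611, Hbb-bt and Hbb-bs in the beta globin region of chromosome 7, and Adgrg7, Tmem45a and Tmem45a2 on chromosome 16. Olfr611, an olfactory receptor gene beside the globins, stood at 7.09, 7.18 and 7.11 against 5.09, 4.76 and 4.99 in wild type, where it was undetected. Aph1a, Olfr611 and Adgrg7 were undetected on all wild type and Wip1-/- arrays, so they could count only as rises. Over all genes, 5.95% rose and 1.69% fell by more than 2-fold.

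Against the Wip1-/- arrays, 3667 genes (34.7%) passed, 16.7% higher and 18.0% lower. Of the 3103 genes that differed from wild type, 2029 (65.4%) also differed from Wip1-/- in the same direction, 1024 of them higher and 1005 lower on the arrays labelled Wip1-/- Atm+/-. These contrasts share the arrays labelled Wip1-/- Atm+/-, so the count is a description. In the smooth muscle list 19 of 21 genes were higher than on the Wip1-/- arrays, and 14 of 21 were higher on the Wip1-/- arrays than in wild type, against 11.5% of all genes. Myh11 averaged 11.05 on the arrays labelled Wip1-/- Atm+/-, 8.99 on the Wip1-/- arrays and 7.88 in wild type, and Col4a1 averaged 10.18, 8.63 and 7.39. In the spermatogonium list 9 of 12 were lower than on the Wip1-/- arrays, where 2 were higher and 0 lower than wild type, against 8.36% lower of all genes. Dazl averaged 8.03 on the arrays labelled Wip1-/- Atm+/-, 10.23 on the Wip1-/- arrays and 9.66 in wild type. In the replication list 13 of 27 and in the spindle list 18 of 27 were lower than on the Wip1-/- arrays. In the fibrous sheath list 7 of 18 were higher than on the Wip1-/- arrays and 0 lower. On the Wip1-/- arrays 5 of the 18 were lower than in wild type and 0 higher, against 8.36% lower of all genes.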

How the data were processed

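Mouse spermatids of 3 genotypes were measured on 9 Illumina Mouse WG-6 v2.0 arrays and the 6 arrays labelled Wip1-/- Atm+/- and Wip1+/+ were compared. Per the labels, total RNA was extracted with Trizol, cleaned with DNase on columns and amplified to biotinylated cRNA. The deposited scanner table holds non-normalized probe intensities, per the file headers, and, in other columns, the scanner's detection p-value of each probe. In 895 deposited detection cells the decimal point was lost, and they were read as thousandths. The authors deposited a processed table of linear intensity too, which by its values was quantile normalized. Its scale is linear and its genes are not centred, and the sources used here do not state how it was made.

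The 43582 probes complete in the scanner table were background-corrected, quantile normalized and put on the log2 scale by the neqc function (limma 3.58.1, R 4.3.3, offset 16). The deposited values of 1697 probes were blank there and stay out of the main comparison. In the platform annotation 34885 probes had 1 gene symbol, 18 had several and 10376 had none, and 34807 were updated through their gene identifier. The filter kept 18867 probes with a detection p under 0.05 on 3 or more arrays, and the brightest stood for its gene, giving 10556 genes, 3467 of them with several probes. A linear model over the 9 arrays with eBayes moderation was fitted, two-sided, with Benjamini-Hochberg adjustment over all genes and a threshold of 0.05. The script was tested on simulated data.

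The comparison, gene lists and rules were chosen with earlier results of these data known, and the lists are described by counts with no set test. Named genes were drawn by rule, and not every gene or list that the rule gives is named. The rule took the 30 largest rises and falls without overlap of the groups and the 8 largest called members of every list. It also took all members of lists of 6 or fewer tested, runs of neighbours and the 10 largest bounds. Members of smooth muscle, basement membrane and promoter sets beyond these, genes beside Atm and on chromosome 16, and members named because they did not pass were added after their values were seen. Promoters came from RefSeq, build GRCm38.p6. Annotation gave gene order only, as the files name no build. The 16 alternatives were other scalings, background, filters, probe summaries, models and leaving out each array.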

Additional observations from a re-analysis of the deposited data

Results flagged for a closer look

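The 1697 probes that are blank in the scanner table have values in the authors' processed table, which the comparison above did not use for them. On log2 of those processed intensities, tested with limma over all probes of that table, 147 of them were higher and 140 lower on the arrays labelled Wip1-/- Atm+/- than in wild type, 16.9% of the blank probes against 13.1% of all probes. By more than 2-fold, 28 were higher and 6 lower, and 123 called genes were read by blank probes alone. Each gene below was drawn from these probes as 1 of the 8 largest differences in its direction.

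Tcf21, a transcription factor of stromal progenitors of the testis, stood at 8.93, 8.96 and 8.89 on the arrays labelled Wip1-/- Atm+/- against 6.96, 7.08 and 7.05 in wild type, a difference of 1.89. Cyp26b1, which degrades retinoic acid, stood at 8.56, 8.78 and 8.88 against 7.17, 6.75 and 6.79, a difference of 1.83. In both genes the groups did not overlap. Rhbdl2, a rhomboid protease gene, differed by 1.94, the ribosomal protein gene Rps4x by 1.76, Prf1 by 1.69, Slc48a1, a haem transporter gene, by 1.65, Siglech by 1.42 and Dpysl2 by 1.39.

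Among the lower ones, Nid2, the second nidogen of the basement membrane, stood at 7.29, 7.35 and 7.42 on the arrays labelled Wip1-/- Atm+/- against 8.05, 8.44 and 8.27 in wild type, a difference of -0.90, while Nid1 in the main comparison was higher. Hormad2, a protein of meiotic chromosome axes, stood at 7.03, 7.15 and 7.04 against 7.85, 7.79 and 7.73, a difference of -0.72, and Spata22, a partner of Meiob in recombination, differed by -0.79. Cyb5d1 differed by -1.06, Adss by -0.81, Mis18a, a factor that loads Cenpa, by -0.81, Rab8a by -0.76 and Cep72 by -0.71.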

How the results depend on the processing

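Of 335 called genes named or listed by rule, 264 kept direction and call under each of the 16 alternatives in which they were tested, and 71 lost the call or turned in some. Over 5574 pairs of gene and alternative, 5235 kept both, 317 lost the call, 18 gained it and 4 turned sign, all 4 with the mean of a gene's detected probes (Agfg1 0.049, Atm 0.24, Rfx4 -0.33 and Srf 0.078), where probes of 1 gene differ. Leaving out 1 array gave 2494 to 2935 called genes, 1378 to 1565 higher and 1116 to 1370 lower, with 626 to 640 over 2-fold higher and 180 to 196 over 2-fold lower. Median scaling gave 2451 lower genes. The counts over 2-fold, higher and lower, were 300 and 55 with no background correction, 351 and 110 with only genes detected on all 9 arrays, where 8141 were tested, and 329 and 57 in the authors' processed table. Of 1728 list counts over these alternatives, 1496 stayed within 1.5 times the reported count. Replicate numbers do not pair these arrays: same-numbered arrays correlated at 0.02, -0.12 and -0.02 in their deviations from the group means, and none correlated best with its own number. A replicate block gave 2896 called genes, and a fit on only the 6 arrays compared gave 2651, against 3103. With 3 arrays a group the spread is poorly known, and probes near background give only bounds.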
